A study of Drosophila melanogaster with 24 samples.

Results

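Female and male transcript levels were compared in whole adult fruit flies (Drosophila melanogaster) that carried the Act5C-GAL4 driver and no responder transgene, genotype w;Act5C-GAL4/+. The comparison rests on 3 arrays of females and 3 of males, chosen by their sample titles, among the 24 arrays of a study of the nuclear receptor gene Hr96 (DHR96). GAL4, from yeast, activates transgenes that carry its UAS binding sequence, and the Act5C-GAL4 driver uses the promoter of a broadly expressed actin gene. These flies were the study's genetic control for over-expression of Hr96 (w;Act5C-GAL4/UAS:OE_Dhr96OE_35). A second control, w;arm-GAL4/+, served the RNA interference line (w;arm-GAL4/+;UAS:RNAi_Dhr96Hp_3/+) and has its own 3 female and 3 male arrays. It shares no array with the Act5C-GAL4 control and shows which sex differences were absent or reversed in the other driver line. All flies of both controls carried the w mutation and were 0 to 3 days old, collected as they emerged, on 1 of 3 batches of diet, and the replicate number marks that batch. The sources used here do not give how many flies made up a sample. The labels call the replicates biological.

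Whole adult flies include the reproductive organs, which differ between the sexes. An ovary makes eggs filled with yolk and maternal RNA and wrapped in a vitelline membrane and a chorion. A testis makes sperm under its own transcription programme, and the accessory glands, ejaculatory duct and ejaculatory bulb add seminal fluid proteins. In the body, sex is set by a splicing cascade from Sxl through tra to dsx and fru, and the MSL complex raises the output of the X chromosome in males.

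Levels are given as log2 of the deposited intensity, and values for 3 arrays are always in the order of diet batches 1, 2 and 3. A difference is the mean of females minus the mean of males on that scale, so a positive value is higher in females. A probe set was called when its limma p-value, adjusted over all 18769 probe sets by the Benjamini-Hochberg method, was under 0.05. Of these probe sets, 9346 (49.8%) were called, 6436 (34.3%) higher in females and 2910 (15.5%) higher in males. In 8963 of the calls the female and male arrays did not overlap, and 9234 had the same direction in all 3 same-batch pairs. Calling itself favours probe sets with separated arrays, so these counts add no support of their own. The shares over all probe sets were not counted. Among the 11982 genes with a probe set of their own, taking the brightest probe set of each gene, 7146 (59.6%) were called, 4610 (38.5%) higher in females and 2536 (21.2%) higher in males. The large differences ran the other way, since 345 probe sets were higher in males by at least 5 log2 units and 39 higher in females, and 80 against 12 by at least 7.

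The arrays were close in mean intensity and differed in median intensity. Mean intensity was 296.4, 300.7 and 297.3 in the females and 300.9, 296.1 and 301.0 in the males. Median intensity was 60.8, 55.3 and 56.5 in the females and 65.4, 64.8 and 64.4 in the males, and the median difference over all probe sets was 0.21. Shifting the arrays to a common median moved this to 0.38 and the calls to 9993 higher in females and 2547 higher in males. Shifting them to a common median of cytosolic ribosomal protein genes moved it to -0.50 and the calls to 2188 and 11301. Differences of several log2 units keep their direction under such shifts, while differences under about 1 depend on them, and each list below is read against the median of 0.20 over all genes. Within the groups arrays correlated at 0.9828 or more. A typical probe set had an SD of 0.171 among the females and 0.16 among the males (medians over probe sets).

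**Figure D1:**
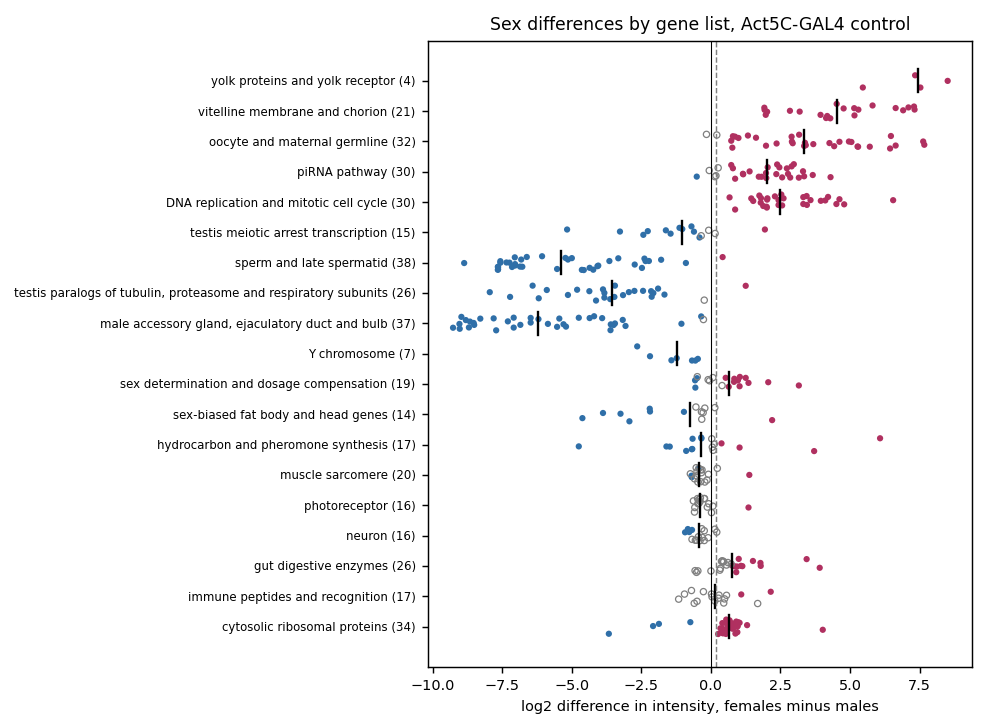
Each point is 1 gene of 19 lists (number of measured genes in brackets), placed by its log2 difference in intensity, females minus males, in the Act5C-GAL4 control. Filled red points were called higher in females, filled blue points higher in males, open points were not called, the black bars are list medians, and the dashed line marks the median of all genes. Egg lists lie to the right (medians up to 7.43) and sperm and seminal fluid lists to the left (medians down to -6.2). The muscle, eye and neuron lists have small medians left of the dashed line (-0.44, -0.38 and -0.42).

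Yolk protein genes were among the largest female differences. They encode the egg's store of nutrient protein, made in the fat body and in the follicle cells of the ovary. Yp1 read 13.38, 13.06 and 13.54 in females and 6.33, 3.78 and 4.34 in males. All 3 females lay near the top of the scale, and the males spread over more than 2 log2 units far below them. The difference was 8.51 (SE 0.42, limma adjusted p = 5.18e-14). Its size is uncertain, since males 2 and 3 read below the lower quartile of every array (log2 4.377), and it was 7.99 without male array 2 and 9.27 without male array 1. Yp2 differed by 7.53 (SE 0.3) and Yp3 by 7.34 (SE 0.29). The receptor gene yl, whose product takes yolk up into the oocyte, read 9.72, 10.46 and 10.06 against 4.57, 4.97 and 4.32, a difference of 5.46 (SE 0.22). In whole animals, fewer cells of a type and less RNA per cell cannot be told apart.

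All 21 measured genes of the vitelline membrane and chorion list were called higher in females, against 38.5% of all genes. Their median difference was 4.52. The vitelline membrane is the inner layer of the eggshell and the chorion its outer layer, both made by follicle cells. The chorion gene Cp36 read 13.23, 12.55 and 12.89 in females against 5.79, 5.47 and 5.52 in males, a difference of 7.3 (SE 0.62, adjusted p = 8.28e-10). Cp19 read 13.12, 11.23 and 13.21 against 5.85, 4.73 and 5.02, and Cp16 12.66, 10.39 and 12.78 against 5.16, 4.71 and 5.25. Both chorion genes were lower in the batch 2 females than in the other females, by about 2 log2 units, and still far above every male. Cp38 differed by 7.1 (SE 0.74), Cp15 by 6.64 and Cp18 by 5.81. Vitelline membrane genes had smaller differences, 5.3 for Vm34Ca, 5.15 for Vm26Aa and 4.18 for Vm32E. The smallest of the list were Muc4B at 1.92, Vm26Ac at 1.93 and Fcp3C at 1.97. In the arm-GAL4 control 20 of the 21 were called higher in females, against 38.9% of all genes, with a median of 3.37. The limma test of the difference between controls called 0 of the 21, and 0 had an unadjusted p under 0.05.

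Maternal germline genes followed the same pattern, with 30 of 32 measured genes (93.8%, against 38.5% of all genes) called higher in females. Their median was 3.36. osk, which assembles the germ plasm at the posterior of the oocyte, read 11.54, 12.12 and 11.53 in females and 4.14, 4.18 and 3.86 in males. The difference of 7.67 (SE 0.22, adjusted p = 4.1e-18) rests on a male mean below the lower quartile of every array (log2 4.377), where a level may be mostly background and the size of a fold is uncertain. Both other osk probe sets agreed in direction, at 7.94 and 7.06. dhd, a thioredoxin of the female germline, read 12.94, 13.45 and 13.14 against 5.79, 5.53 and 5.31, a difference of 7.63 (SE 0.21). nanos, the translational repressor gene whose RNA gathers in the germ plasm, is not counted in the list and differed by 6.68 (SE 0.29), and otu differed by 6.64 (SE 0.31), both with male means under that quartile. mtrm, an inhibitor of the meiotic kinase polo, differed by 6.47, orb, an oocyte regulator of translation, by 6.44, and bcd, the anterior determinant, by 5.05. The smallest called differences were those of vas at 0.79, stau at 0.77 and tud at 0.73, and exu (-0.16) and ALiX (0.21) were not called.

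Of the 30 measured piRNA pathway genes, which silence transposons in the germline through small RNAs, 25 (83.3%) were higher in females. In the other direction 1 (3.33%) was called, and 4 were not called. Among all genes the shares were 38.5% and 21.2%. The list median was 2.01. piwi, the nuclear Argonaute protein of the pathway, read 8.48, 8.94 and 8.55 in females and 4.57, 4.4 and 4.08 in males, a difference of 4.3 (SE 0.19, adjusted p = 7.13e-15). tej followed at 3.66, rhi, which marks piRNA clusters on chromatin, at 3.35, and AGO3 at 3.31. The other cytoplasmic Argonaute gene, aub, differed by 2.56. papi went the other way, at 8.58, 8.65 and 8.52 in females against 9.02, 9.18 and 9.07 in males, a small difference of -0.51 (SE 0.11) with no overlap between the sexes. Genes shared with the maternal germline list (vas, tud, cuff, del, rhi) count in both.

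All 30 measured genes of DNA replication and the mitotic cell cycle were higher in females, against 38.5% of all genes. Their median was 2.48. CycB, a mitotic cyclin stored in eggs, read 11.95, 12.61 and 12.2 in females against 5.6, 5.25 and 6.25 in males, a difference of 6.55 (SE 0.39, adjusted p = 1.53e-12). CycE, which drives entry into S phase, differed by 4.79 (SE 0.32), the helicase gene Mcm5 by 4.62 (SE 0.28), and RnrL, the large subunit of ribonucleotide reductase, by 4.51 (SE 0.26). Batch 2 was the highest of the female arrays for each of these 4 genes. Condensin subunits had the smallest differences, 0.67 for barr and 0.87 for Cap-G. CG43074 and Muc12Ea, outside the lists, were among the 12 largest female differences at 7.17 and 7.16, with male means below the lower quartile.

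Among named genes, the largest single difference was that of a gene of the male accessory gland, ejaculatory duct and bulb list. Of its 37 members measured, 36 (97.3%, against 21.2% of all genes) were higher in males. Only Acp95EF (-0.27) was not called, and the list median was -6.2. Acp53Ea read 3.42, 3.45 and 3.66 in females and 12.48, 12.76 and 13.09 in males. Every female lay below the lower quartile and every male above 12, a difference of -9.27 (SE 0.17, adjusted p = 7.76e-21). EbpII, a protein of the ejaculatory bulb, differed by -9.04 (SE 0.27), Acp53C14b by -9.03 (SE 0.29) and Acp98AB by -8.97 (SE 0.34). Acp26Aa, the seminal fluid protein ovulin, which stimulates ovulation in mated females, read 3.46, 3.18 and 3.66 against 11.6, 11.97 and 12.32. SP, the sex peptide that changes female behaviour after mating and that was picked after its values were seen, read 4.65, 4.59 and 5.02 against 11.8, 12.14 and 12.22. The ejaculatory duct peptide gene Dup99B differed by -7.72, and Acp36DE, needed for sperm storage, by -8.66. EbpIII was the exception in level: females already read 12.22, 11.62 and 12, against 12.74, 12.93 and 13.34 in males, a difference of -1.06 (SE 0.21). Elo68beta, a fatty acid elongase gene, differed by only -0.35.

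**Figure D2:**
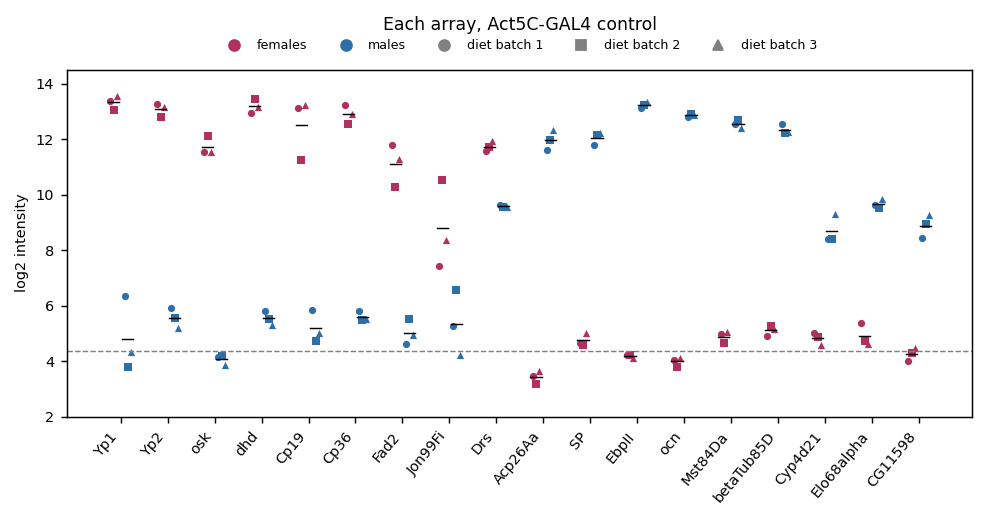
Log2 intensity of 18 genes in each of the 6 Act5C-GAL4 control arrays, females in red and males in blue, with the marker shape giving the diet batch, short lines the group means and the dashed line the lowest lower quartile of any array (4.377). The sexes do not overlap for any gene shown; the batch 2 females stand low for Cp19 (11.23) and high for Jon99Fi (10.54).

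Of 38 measured sperm and late spermatid genes, 37 (97.4%, against 21.2% of all genes) were higher in males. The list median was -5.38. ocn, a testis gene, read 4.04, 3.79 and 4.13 in females and 12.8, 12.9 and 12.85 in males, a difference of -8.87 (SE 0.22, adjusted p = 3.12e-19). Mst84Da, a sperm tail protein gene, read 4.96, 4.64 and 5.04 against 12.55, 12.67 and 12.39, a difference of -7.66 (SE 0.2). Its neighbours Mst84Db and Mst84Dc differed by -7.66 and -7.65, and w-cup by -7.65. The sperm chromatin genes Mst77F, ProtA and ProtB differed by -7.35, -7.24 and -6.07. Mst57Da (-7.57) and Mst57Dc (-7.15), listed here by name, encode accessory gland products. The mitofusin gene fzo, which fuses the mitochondria of spermatids, had a smaller difference of -2.48, and p-cup the smallest at -0.9. Mst36Fb read 4.44, 4.76 and 4.97 in females against 4.21, 4.39 and 4.34 in males, near background throughout. Its call higher in females (0.42, adjusted p = 0.0398) was lost when any of 4 of the 6 arrays was left out, with p-values up to 0.188.

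In the list of testis versions of housekeeping subunits, 24 of 26 genes (92.3%, against 21.2% of all genes) were higher in males. The list median was -3.55. betaTub85D, the beta-tubulin of spermatogenesis, read 4.91, 5.27 and 5.17 in females and 12.55, 12.21 and 12.25 in males, a difference of -7.22 (SE 0.17). The thioredoxin gene TrxT, expressed in the testis, differed by -7.95 (SE 0.14), from a female mean below the lower quartile, while dhd, also a thioredoxin gene, was high in females. Paralogs of respiratory chain subunits followed, COX4L at -6.41 and COX7AL at -6.19. The proteasome paralogs ranged from -4.81 for Prosbeta5R1 to -1.9 for Rpt4R, and Prosbeta4R2 (-0.24) was not called. ocm is counted in this list although it is not a testis version of a tubulin, proteasome or respiratory subunit. It was called higher in females, at 7.48, 7.61 and 7.63 against 6.42, 6.22 and 6.32, a difference of 1.25 (SE 0.11).

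The testis meiotic arrest list had a median nearer to 0. Meiotic arrest genes encode testis forms of general transcription factors and of a chromatin complex that switch on the spermatid programme. The list also holds the meiosis genes bol and twe, which are not such factors. Of 15 measured, 11 (73.3%, against 21.2% of all genes) were higher in males. In the other direction 1 (6.67%, against 38.5%) was called, and 3 were not called. The list median was -1.03. bol, a translational regulator of meiosis in the testis, read 5.58, 5.03 and 5.35 in females and 10.45, 10.75 and 10.28 in males, a difference of -5.17 (SE 0.2). Its other probe sets showed no such difference, at 0.24 and 0.19. The testis TAF gene sa differed by -2.43 (SE 0.14) and can by -2.27 (SE 0.16), the latter with females below the lower quartile. twe, a Cdc25 phosphatase of meiosis in both sexes, was higher in females, at 6.75, 7.72 and 6.91 against 5.38, 5.06 and 5.11, a difference of 1.94 (SE 0.36, adjusted p = 7.6e-05).

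All 7 measured genes of the Y chromosome list were called higher in males, against 21.2% of all genes. Their median was -1.23. Most encode parts of the sperm, such as the dynein heavy chains of kl-2, kl-3 and kl-5. ORY read 3.05, 3.02 and 3.08 in females and 5.33, 5.45 and 4.93 in males, a difference of -2.19 (SE 0.16). Pp1-Y2, a phosphatase gene, read 5.48, 5.77 and 5.63 in females, above the lower quartile although females have no Y chromosome, and 6.84, 7.24 and 7.05 in males. For the other 6, the female mean was below the lower quartile, and for 2 of the 7 the male mean was too.

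Within the sex determination and dosage compensation list, 11 of 19 measured genes (57.9%, against 38.5% of all genes) were higher in females. Another 3 (15.8%, against 21.2% of all genes) were higher in males and 5 were not called. The median was 0.64. dsx, whose female and male proteins come from different splicing, read 7.67, 7.47 and 7.4 in females and 4.01, 4.34 and 4.71 in males on its brightest probe set, a difference of 3.16 (SE 0.23, adjusted p = 5.49e-11). Its other probe set was called the opposite way, with a mean of 4.55 in females and 7.06 in males, a difference of -2.51 (SE 0.23, adjusted p = 3.05e-09). Sxl, the switch gene that is on in females, also had probe sets in disagreement. The brightest read 7.54, 7.31 and 7.07 in females and 7.91, 7.84 and 7.66 in males (-0.5, SE 0.15), another was higher in females (1.01, SE 0.22, adjusted p = 0.000625), and a further one was not called (0.45). Which transcript forms these probe sets measure was not analysed here.

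Genes acting on Sxl splicing were higher in females: nito by 2.06 (SE 0.18), fl(2)d by 1.35 (SE 0.19), Ythdc1 by 0.84 (SE 0.13) and vir by 0.64 (SE 0.12). A second, dimmer nito probe set was not called (0.1, limma adjusted p = 0.557). tra, the splicing factor made functional in females only, read 7.52, 7.55 and 7.67 against 6.59, 6.82 and 6.85, a difference of 0.83 (SE 0.12). The cofactor gene ix differed by 0.97 (SE 0.16) and tra2 by 0.53 (SE 0.18), a call lost without male array 1 (adjusted p = 0.0859) or female array 2 (adjusted p = 0.065). Among genes of the MSL complex, msl-1 (1.25, SE 0.15), mof (1.04, SE 0.14) and msl-3 (1.03, SE 0.15) were higher in females, and the helicase gene mle was not called (0.4, SE 0.23). msl-2, translated in males only, read 4.14, 4.23 and 4.3 in females, below the lower quartile, and 4.63, 4.8 and 4.93 in males, a difference of -0.56 (SE 0.17). fru read 6.35, 5.98 and 5.88 against 6.9, 6.72 and 6.3, with overlapping groups and a borderline call (-0.57, adjusted p = 0.0497), and its adjusted p rose to 0.0509 with diet batch as a block. The fru call was lost when any of 4 of the 6 arrays was left out (adjusted p up to 0.189), and the other 6 fru probe sets were not called, with values from 0.01 to 0.19. her (-0.05), bab1 (0.07), bab2 (-0.1) and fne (-0.49) were not called. Under the ribosomal scaling this list had 4 genes higher in females and 7 higher in males, and tra2 (-0.18) and vir (-0.07) turned sign. Without female array 3 only 1 gene of the list was higher in males. In the arm-GAL4 control 10 of the 19 were higher in females and 0 in males. There fru (-0.26), msl-2 (-0.23), tra2 (0.08) and the brightest Sxl probe set (0.01) were not called. The limma test of the difference between controls called 0 of the 19.

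Sex-biased genes of the fat body and head had 7 of 14 members (50.0%, against 21.2% of all genes) higher in males. Another 1 (7.14%, against 38.5%) was higher in females and 6 were not called, with a median of -0.75. CG11598, a lipase-like gene, read 4.01, 4.28 and 4.48 in females and 8.43, 8.95 and 9.25 in males, a difference of -4.62 (SE 0.2). Cyp4d21, a cytochrome P450 known for male expression in the head fat body, read 5.01, 4.88 and 4.59 against 8.41, 8.41 and 9.29, a difference of -3.88 (SE 0.26, adjusted p = 1.19e-11). Qsox2 differed by -3.25 (SE 0.18), sxe2 by -2.2 and Obp99b by -2.19. Lsp2, a larval serum protein, differed by -2.93 with a wide SE of 0.78, reading 7.89, 6.91 and 6.45 against 9.47, 11.23 and 9.34. fit, a peptide gene known to be higher in females, read 8.83, 8.35 and 8.96 against 6.03, 5.66 and 7.86. Its difference of 2.2 (SE 0.79, adjusted p = 0.0258) was called without 2 of the 6 arrays and not without the other 4, with p-values up to 0.104.

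Hydrocarbon and pheromone genes went in both directions, with 4 of 17 (23.5%) higher in females, 9 (52.9%) higher in males and a median of -0.34. Among all genes the shares were 38.5% and 21.2%. Hydrocarbons of the cuticle are made in oenocytes, and females carry dienes as courtship cues. Fad2, the desaturase that makes those dienes, read 11.79, 10.27 and 11.27 in females and 4.63, 5.52 and 4.94 in males, a difference of 6.08 (SE 0.4, adjusted p = 1.14e-11). eloF, the elongase of the same branch, read 10.17, 8.95 and 9.82 against 6.23, 5.81 and 5.76, a difference of 3.71 (SE 0.34). For both genes the batch 2 females were the lowest of the females and remained above every male. Elo68alpha, an elongase gene also counted in the male reproductive tract list, was higher in males, at 5.39, 4.72 and 4.62 against 9.64, 9.52 and 9.83 (-4.75, SE 0.3). bond, an elongase needed for male pheromone lipids, differed by -1.6 (SE 0.23) and the reductase gene FarO by -1.48 (SE 0.25). Desat1 (0.08), which makes the first double bond in both sexes, and the fatty acid synthases FASN1 (0.03) and FASN3 (0.12) were not called. Without female array 2 or female array 3, 5 genes instead of 9 were called higher in males.

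Of 26 gut digestive enzyme genes, 13 (50.0%, against 38.5% of all genes) were higher in females and 13 were not called. The list median was 0.75. Leaving out single Act5C-GAL4 arrays gave 9 to 16 genes of the list higher in females, so the count rests on single arrays. The arm-GAL4 control called only 7 of the 26 higher in females, against 38.9% of all genes, with a median of 0.62. The limma test of the difference between controls called 0 of the 26. Jon66Ci, a serine protease of the gut, read 10.51, 11.42 and 10.82 in females and 6.46, 8.25 and 6.31 in males, a difference of 3.91 (SE 0.77, adjusted p = 0.000154). Jon99Fi read 7.43, 10.54 and 8.38 against 5.27, 6.55 and 4.23, a difference of 3.44 (SE 0.85). Batch 2 was the highest of both sexes in each of these genes, and within every batch the female array was above the male. Jon66Cii and Jon65Ai differed by 1.79 and 1.78. The call of Jon66Cii was lost without female array 2 (0.89, adjusted p = 0.159). The maltase genes Mal-A1, Mal-A2 and Mal-A6 had small negative values, from -0.47 to -0.57, and were not called. Under the ribosomal scaling the list had 3 genes called in each direction.

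Immune genes mostly did not differ beyond their spread. Of 17 measured, 2 (11.8%, against 38.5% of all genes) were higher in females and 15 were not called, with a median of 0.14. The antifungal peptide gene Drs read 11.57, 11.7 and 11.93 in females and 9.61, 9.55 and 9.57 in males, a difference of 2.15 (SE 0.29, adjusted p = 1.02e-06). Def, which encodes defensin, differed by 1.09 (SE 0.29), and by 0.37 under the ribosomal scaling, where it was not called (adjusted p = 0.271). Under that scaling 1 gene of the list was higher in females and 8 in males. TotC read 7.16, 8.06 and 7.14 against 5.59, 4.96 and 6.77, a difference of 1.68 that did not pass (adjusted p = 0.0711). With the 6 compared arrays alone the list had 4 genes higher in females and 2 higher in males, and without female array 2 it also had 2 higher in males.

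The muscle, photoreceptor and neuron lists, of somatic tissues present in both sexes, gave small differences. Of 20 muscle genes, 3 were higher in males and 1 in females. Of 16 photoreceptor genes 1 was higher in females, and of 16 neuron genes 4 were higher in males. Among all genes 21.2% were higher in males and 38.5% in females. The muscle, photoreceptor and neuron medians were -0.44, -0.38 and -0.42, below the median of all genes. In the arm-GAL4 control 9 muscle, 1 photoreceptor and 8 neuron genes were higher in males, against 22.1% of all genes. There 1 muscle, 1 photoreceptor and 0 neuron genes were higher in females, against 38.9%. The limma test of the difference between controls called 0 genes in each list. Act79B, a muscle actin, read 13.22, 12.49 and 12.74 in females against 13.93, 13.23 and 13.36 in males (-0.69, SE 0.27), and the titin-like gene sls differed by -0.7 (SE 0.19) with overlapping arrays. ChAT, which makes acetylcholine, differed by -0.93 (SE 0.29) and the synaptic gene Snap25 by -0.83 (SE 0.29). Leaving out single arrays ended the calls of Act79B (4 of the 6 arrays, adjusted p up to 0.205), Snap25 (3 arrays, up to 0.122) and ChAT (2 arrays, up to 0.075). The Act5C-GAL4 counts of the muscle, photoreceptor and neuron lists move with the fit. Muscle genes higher in males numbered 10 with diet batch as a block, 18 under the ribosomal scaling and 1 under the common median. Leaving out female array 1 gave 9, and leaving out male array 1, female array 2 or female array 3 gave 1. Neuron genes higher in males numbered 16 under the ribosomal scaling and at most 1 without any of male array 1, female array 2, female array 3 or male array 3. Photoreceptor genes higher in males numbered 13 under the ribosomal scaling, 4 with the compared arrays alone and 2 without male array 2. The genes with a female direction were flr (1.38, SE 0.12), a regulator of actin turnover, and inaE (1.35, SE 0.21), a diacylglycerol lipase gene. Other inaE probe sets gave 1.32 and 0.63, both called, and 0.36 and -0.12, not called (limma adjusted p = 0.0509 and 0.766).

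Of 87 listed cytosolic ribosomal protein genes 34 were measured, and these 34, paralogs included, set the ribosomal scaling. Of them, 30 (88.2%, against 38.5% of all genes) were higher in females and 4 (11.8%, against 21.2%) in males. The list median was 0.64. Most lay close together, from 0.26 for RpS28b to 1.3 for RpL34a. RpS5b, a germline paralog of RpS5a, stood apart at 12.61, 12.89 and 12.79 in females against 8.67, 8.79 and 8.78 in males, a difference of 4.02 (SE 0.18, adjusted p = 5.51e-15). The 4 genes higher in males are all second copies of a ribosomal gene. RpS19b read 5.55, 4.98 and 5.52 against 8.98, 8.89 and 9.18 (-3.67, SE 0.19), followed by RpL37-2 (-2.08, SE 0.25), RpS10a (-1.87, SE 0.23) and RpS28a (-0.74, SE 0.16). Scaling on the ribosomal median removes the common shift by construction and left 4 genes higher in females and 10 higher in males.

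Chromosome arms were also described by their shares of calls. Of 1873 X-linked genes, 47.6% were higher in females and 17.2% in males, and the median difference was 0.33. On the large autosome arms 35.4% to 38.3% were higher in females, and the medians ran from 0.13 to 0.21. Among the X chromosome and these arms, 2L had the largest share higher in males, 25.0%. The 4 genes placed on the Y chromosome were all higher in males. With a 2-fold minimum, which 17.8% of all genes passed higher in females and 15.4% higher in males, the X chromosome had 25.6% higher in females and 12.5% higher in males, against 15.7% to 17.2% and 14.4% to 19.1% on those autosome arms. The small chromosome 4, with 65 genes, had 32.3% and 7.7%. The arm-GAL4 control gave 48.1% and 17.7% on the X chromosome, against 38.9% and 22.1% over all genes. These shares are descriptive, since genes are not independent replicates.

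**Figure D3:**
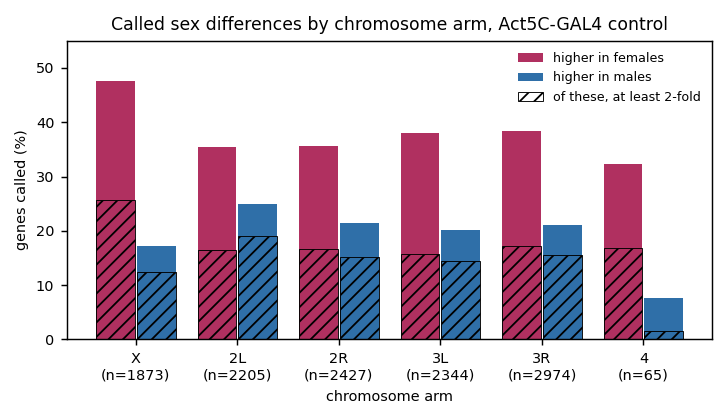
Percent of genes called higher in females (red) and in males (blue) in the Act5C-GAL4 control on the X chromosome, the autosome arms and chromosome 4 (the Y chromosome is not drawn), 1 probe set per gene with the number of genes under each arm; hatched parts of the bars are the calls of at least 2-fold. Of the bars drawn, the X chromosome has the tallest red bar (47.6%) and arm 2L the tallest blue bar (25.0%).

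Sex differences were then set beside those of the arm-GAL4 control, in which 9282 probe sets (49.5%) were called. Of the Act5C-GAL4 calls 84.4% were called in the same direction in arm-GAL4, and of the arm-GAL4 calls 85.0% in Act5C-GAL4. A further 1450 Act5C-GAL4 calls were not made in arm-GAL4, but these were small, with a median size of 0.447 against 1.154 for the shared calls. Missing a threshold in 1 control does not show a difference between controls, so the difference of the sex effects was tested directly. It was called for 16 of the 18769 probe sets (0.0852%), and 826 of the 18769 had an unadjusted p under 0.05. No gene of the 19 lists was among the 16. The largest numbers of list members at an unadjusted p under 0.05 were 6 of 37 in the accessory gland list and 6 of 26 in the list of testis paralogs. Whether these lists exceed the share of all probe sets was not tested. By that test 2 sex differences were absent in arm-GAL4, 1 was reversed, 2 were larger and 7 smaller in Act5C-GAL4, and 4 were present in arm-GAL4 only. With the 12 control arrays alone 5 of the 16 were still called, those of CG32687, CG42272, Sdic3, CG10970 and probe set 1628129_a_at.

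**Figure D4:**
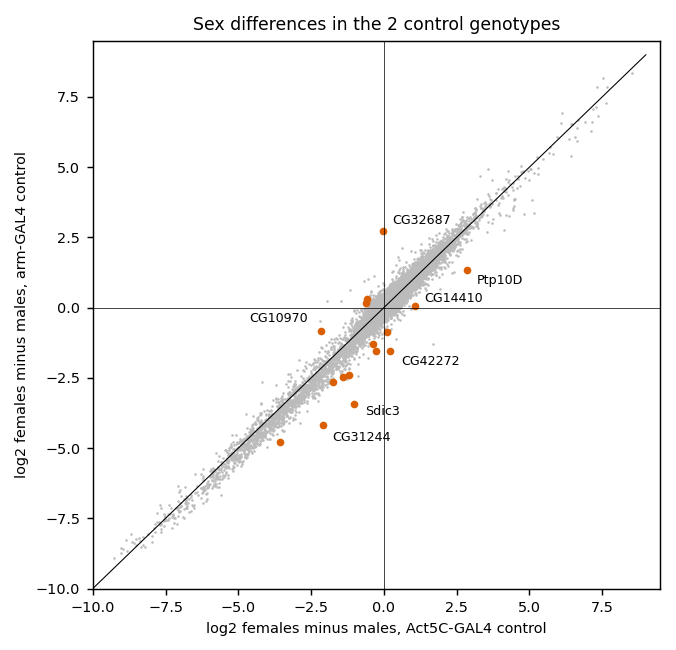
Each point is 1 probe set, with its log2 difference, females minus males, in the Act5C-GAL4 control on the horizontal axis and in the arm-GAL4 control on the vertical axis; the diagonal marks equal differences. Orange points are the 16 probe sets for which the difference between the controls was called, and CG32687 lies farthest from the diagonal (-0.03 against 2.71).

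The sex differences absent in the arm-GAL4 control were those of CG14410 and peo. CG14410, an X-linked gene, read 5.42, 5.38 and 5.56 in Act5C-GAL4 females and 4.17, 4.54 and 4.44 in males, a difference of 1.07 (SE 0.12, adjusted p = 9.38e-08). In arm-GAL4 it read 5.56, 5.76 and 5.63 in females and 5.64, 5.44 and 5.65 in males, a difference of 0.07. Only the Act5C-GAL4 males were low. The test of the difference gave 0.99 (SE 0.17, adjusted p = 0.0197). The over-expression males, which also carry Act5C-GAL4, had a mean of 4.53, and the RNA interference males, which carry arm-GAL4, 5.99. peo, named here after its values were seen, read 7.91, 8.01 and 7.93 in Act5C-GAL4 females against 8.67, 8.61 and 8.48 in males (-0.63), and 7.98, 8.16 and 7.95 against 7.87, 7.82 and 7.9 in arm-GAL4 (0.17, not called). Here the Act5C-GAL4 males were high, as were the over-expression males, with a mean of 8.61. The difference was -0.8 (SE 0.13, adjusted p = 0.0143). Neither call held with the 12 control arrays alone (adjusted p = 0.144 for CG14410 and 0.199 for peo) or under the ribosomal scaling (0.22 and 0.463). Leaving out any of 7 single arrays for CG14410 and of 3 for peo also ended the call.

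The reversed sex difference was that of probe set 1635020_s_at, which has no gene name here. It read 6.48, 6.52 and 6.67 in Act5C-GAL4 females against 7.26, 7.17 and 6.99 in males (-0.59, adjusted p = 0.000228), and 6.94, 7.07 and 7.18 against 6.85, 6.64 and 6.76 in arm-GAL4 (0.31, adjusted p = 0.0321). The sexes did not overlap in either control. The difference between controls was -0.9 (SE 0.17, adjusted p = 0.034), and it was not called when any of 11 of the 12 control arrays was left out (adjusted p up to 0.131), nor with the control arrays alone (0.183) or under the ribosomal scaling (0.295). CG31220 was also called in opposite directions, at 0.54 in Act5C-GAL4 and -0.43 in arm-GAL4, but the test of its difference did not pass (adjusted p = 0.193). The unnamed probe sets 1624408_at and 1625397_at were the other 2 of the 4 with opposite calls.

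The largest difference between the controls was that of CG32687, an X-linked gene. In Act5C-GAL4 it read 9.72, 9.21 and 9.74 in females and 9.47, 9.56 and 9.74 in males, a difference that was not called (-0.03, SE 0.27). In arm-GAL4 females read 8.41, 8.37 and 9.06 and males 5.38, 5.99 and 6.34, a difference of 2.71. The arm-GAL4 males were the group apart. The test gave -2.74 (SE 0.38, adjusted p = 0.002). The RNA interference flies, on the same driver, had means of 8.48 in females and 5.86 in males, and the over-expression flies 10.05 and 9.26. CG42272 showed the opposite arrangement, with males of arm-GAL4 at 6.35, 6.17 and 6.44 and the other 3 groups between 4.62 and 5.49, so that its sex difference was 0.21 in Act5C-GAL4 and -1.54 in arm-GAL4 (difference 1.75, SE 0.22, adjusted p = 0.00152).

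Sdic3, a sperm dynein intermediate chain gene on the X chromosome, was higher in males by less in Act5C-GAL4. Its values there were 5.43, 5.14 and 5.05 in females and 5.64, 6.98 and 6.03 in males (-1.01), against 5.63, 5.19 and 5.26 and 8.92, 8.53 and 8.89 in arm-GAL4 (-3.42). The females of both controls lay between 5.05 and 5.63, and the Act5C-GAL4 males lay below the arm-GAL4 males. The difference was 2.41 (SE 0.33, adjusted p = 0.002). Sdic genes lie in a tandem array of near-identical copies, so which copies the probe set measured is uncertain. A Ptp10D probe set, not the brightest of that gene, read 6.15, 6.41 and 5.84 in Act5C-GAL4 females and 3.44, 3.39 and 2.96 in males (2.87), against 6.94, 7.19 and 6.67 and 5.33, 5.63 and 5.77 in arm-GAL4 (1.35). The difference between controls of 1.51 was not called with the 12 control arrays alone (adjusted p = 0.116). The brightest Ptp10D probe set was not called in Act5C-GAL4 (0.19) or in arm-GAL4 (0.41). For CG31244 the Act5C-GAL4 males read 6.87, 7.27 and 5.96 and the arm-GAL4 males 9, 8.61 and 8.97, but the over-expression males, on the Act5C-GAL4 driver, had a mean of 9.3. These comparisons set whole genotypes side by side, so the driver insertion and any other difference between the lines cannot be told apart.

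**Figure D5:**
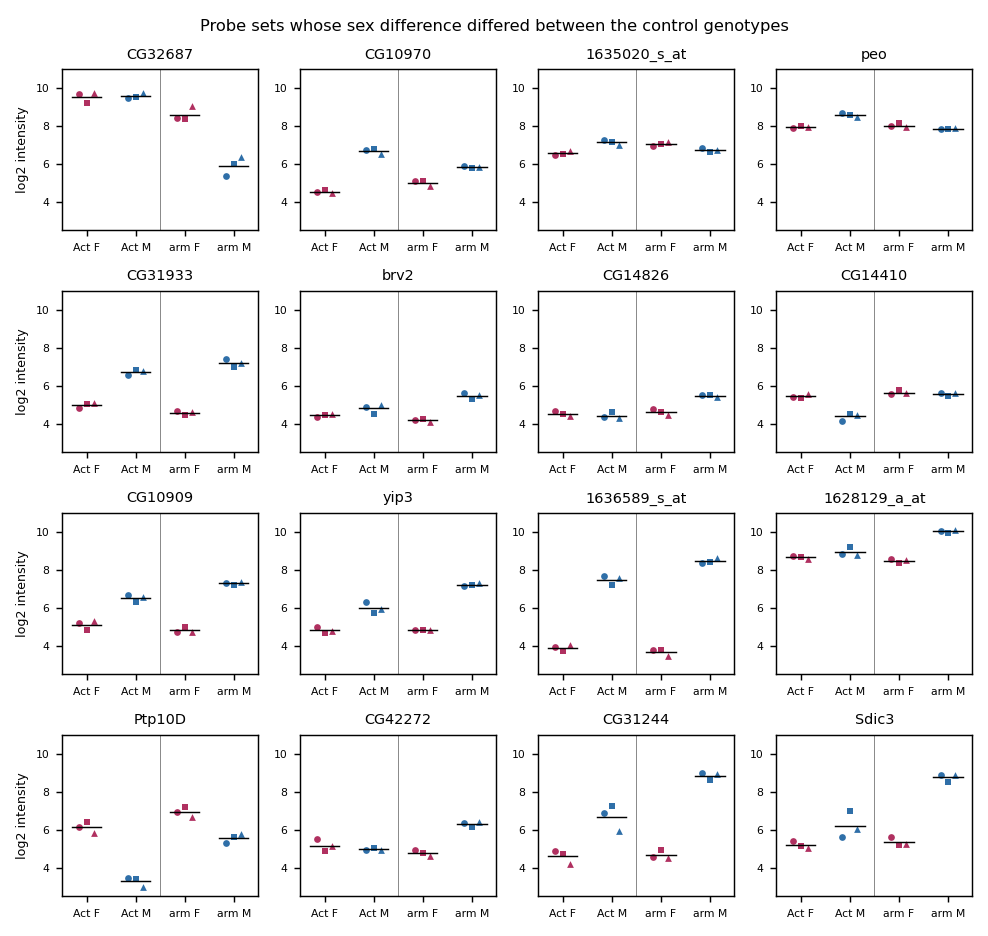
Log2 intensity in each array for the 16 probe sets whose sex difference differed between the controls, with Act5C-GAL4 females and males left of the grey line and arm-GAL4 females and males right of it; lines are group means, and marker shapes give the diet batch as circle, square and triangle for batches 1, 2 and 3. In most panels a male group is the one that stands apart, as the arm-GAL4 males do for CG32687 and the Act5C-GAL4 males for CG14410.

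Hr96 itself was higher in females of the Act5C-GAL4 control. It read 7.53, 8.07 and 7.66 in females and 6.66, 6.5 and 6.86 in males, with no overlap, a difference of 1.08 (SE 0.31, adjusted p = 0.00596), or 2.11-fold. In the arm-GAL4 control the difference was 1.17. Under the ribosomal scaling the Act5C-GAL4 value was 0.37 and was not called (adjusted p = 0.253).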

How the data were processed

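Affymetrix arrays measured RNA of whole flies in 24 samples. The deposited intensity values were made by the authors with RMA, per the submitters' processing notes. RMA corrects background and gives each probe set 1 value per array. The labels and notes give no version and no further scaling. The values are linear and not centred, with array medians from 53.5 to 66.3, so log2 was taken with no pseudocount and no further normalization. No depth applies to arrays, and 3 arrays per group limit the precision.

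Of 18952 probe sets, 183 controls were left out. Of the rest, 13647 name 1 gene (13544 matched to the Release 6 gene table), 402 name several and 4720 are unnamed here. A gene is given by its brightest probe set over all arrays.

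limma 3.58.1 in R 4.3.3 (lmFit, contrasts.fit, eBayes) was fitted to all 24 arrays with 1 mean for each of 8 groups (residual df 16, prior df 5.19), so an SE reflects the spread over all groups. Tests were two-sided, adjusted by the Benjamini-Hochberg method over 18769 probe sets. The contrasts were females minus males in each control and the difference of both. The fit was also run on simulated arrays with independent values and few changed probe sets. That setting differs from these data, so the run does not test the calls made here. Tables and plots used Python 3.11.15, numpy 2.4.6, pandas 2.3.3 and matplotlib 3.10.9.

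The genes named are the 12 largest called differences in each direction with all 3 same-batch pairs agreeing, up to 4 called members per list and direction, all sex determination and yolk genes, the 12 largest differences between genotypes, genes called in opposite directions, and Hr96, Yp1, Acp26Aa and Mst84Da as checks; w, lncRNA:roX1 and lncRNA:roX2 were not analysed here. Other list members are given as values of their list and were chosen after their values were seen. The comparison and the lists were chosen with earlier results of these data known. Listed genes that could not be matched to a probe set of their own were not analysed here.

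The labels tie each replicate number to a batch of diet, which pairs the samples. Deviations from group means correlated at 0.058 to 0.283 over 6 same-numbered pairs and at -0.225 to 0.033 over 12 others. The batch was a block only in an alternative. The remaining settings tried were a fit to just the arrays compared, a minimum mean log2 of 5, 3 scalings, trend and robust eBayes, array weights, a 2-fold rule, fits without each array in turn, and a test on a single probe set for each gene.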

Additional observations from a re-analysis of the deposited data

Results flagged for a closer look

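For 16 probe sets the sex difference differed between the Act5C-GAL4 and the arm-GAL4 control by the limma test of that difference itself (females minus males in Act5C-GAL4, minus the same in arm-GAL4). CG32687 (-2.74), CG10970 (-1.31), probe set 1635020_s_at (-0.9) and peo (-0.8) had negative values. CG31933 (0.89), brv2 (0.95), CG14826 (0.96), CG14410 (0.99), CG10909 (1.07), yip3 (1.2), 1636589_s_at (1.23), 1628129_a_at (1.26), a Ptp10D probe set (1.51), CG42272 (1.75), CG31244 (2.08) and Sdic3 (2.41) had positive values.

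CG10970, X-linked, was higher in males by more in Act5C-GAL4 (-2.16) than in arm-GAL4 (-0.85). For CG31933 (-1.75 against -2.64), CG10909 (-1.41 against -2.48), yip3 (-1.2 against -2.4), brv2 (-0.37 against -1.31) and 1636589_s_at (-3.57 against -4.8) the male excess was smaller in Act5C-GAL4. CG14826 (0.09 against -0.86) and 1628129_a_at (-0.28 against -1.54) were called in arm-GAL4 only. The over-expression males had means of 7.23 for CG31933, 6.98 for CG10909 and 7.04 for yip3, and the males labelled as knockdown 7.11, 7.06 and 7.23. The means of 1628129_a_at were 9.11 in over-expression males and 10.14 in males labelled as knockdown.

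CG32687, CG42272, Sdic3, 1628129_a_at and the Ptp10D probe set were called without each of the 12 control arrays in turn, and the other 11 were not called without at least 1 array. Of these 5, the Ptp10D probe set was not called with the 12 control arrays alone (adjusted p = 0.116). With diet batch as a block CG31933 and 1636589_s_at were not called (adjusted p = 0.0524 for each).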

How the results depend on the processing

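Diet batch as a replicate block gave 6669 and 3071 probe sets higher in females and in males in Act5C-GAL4 and ended no call of a named gene other than fru; among the differences between controls it ended those of CG31933 and 1636589_s_at. Under a common median, 9993 probe sets were higher in females in Act5C-GAL4 and 10676 in arm-GAL4. Under the common ribosomal median, 2188 were higher in females and 11301 in males in Act5C-GAL4, and 2375 and 12065 in arm-GAL4. The 2-fold rule left 2525 and 2786 higher in females. The differences between controls numbered 10 with the 12 control arrays alone, with 5 of the 16 reported among them and 11 lost, 5 under the ribosomal median, also with 11 lost, 26 with array weights and 10 at 2-fold. Leaving out 1 array gave 6 to 14 of them. The same step gave 5600 to 6391 higher in females and 2642 to 2964 in males in Act5C-GAL4. The cause was not tested where a count moved, beyond what each rule or scaling sets by construction. Of 114 called named genes, 98 were called without each Act5C-GAL4 array in turn.

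Signs turned for genes with small differences. Under the ribosomal median the values were -0.3 for Mst36Fb, -0.18 for tra2, -0.31 for mle, -0.07 for vir, -0.64 for bab1, -0.33 for Desat2, -0.5 for CG42272, -0.52 for Ptp10D (brightest probe set), -0.62 for CG14826 and -0.17 for CG31220. Under the common median they were 0.13 for her, 0.08 for bab2 and 0.14 for CG32687. Quantile normalization gave -0.03 for bab1 and 0.08 for CG32687, and array weights 0.02 for CG32687. Without 1 array the range was -0.1 to 0.0059 for her, -0.0037 to 0.17 for bab1, -0.2 to 0.07 for bab2 and -0.12 to 0.14 for CG32687. A group mean below the lower quartile of every array may be mostly background and limits the size of a fold, not its direction.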

Other observations

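Gene families picked after the data were seen, add to the account of the Act5C-GAL4 control. Some of their members, among them 4 serpin genes, are also in a list above. Of 69 mitochondrial ribosomal protein genes, which build the ribosome of mitochondria, 60 (87.0%, against 38.5% of all genes) were higher in females and 9 were not called, with a median of 0.81 against 0.20 over all genes. mRpL1 read 8.52, 8.88 and 8.76 in females against 7.45, 6.97 and 7.23 in males (1.5, limma adjusted p = 1.44e-08). The arm-GAL4 control called 66 of the 69 higher in females. Of 27 serpin genes, which encode protease inhibitors, 13 (48.1%, against 21.2% of all genes) were higher in males and 2 in females. Spn38F (-8.29) and Spn28F (-7.81), counted in the accessory gland list, had the largest male differences, and Spn88Ea was higher in females (1.2).

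The other families had shares near or below those of all genes in each direction. Among 47 odorant-binding protein genes 12 (25.5%) were higher in males and 4 (8.51%) in females. Obp51a read 4.25, 3.94 and 3.81 in females, below the lower quartile of the arrays, and 11.23, 11.24 and 11.64 in males (-7.37, adjusted p = 6.15e-19). Obp22a was also higher in males (-4.52), and Obp19c was higher in females (2.49). Of 80 cytochrome P450 genes 11 (13.8%) were higher in females and 15 (18.8%) in males. Cyp6a19 read 9.11, 10.17 and 9.69 in females and 4.63, 5.08 and 5.18 in males (4.7), and Cyp312a1 read 5.02, 4.78 and 4.77 against 9.87, 9.94 and 9.87 (-5.04). Of 35 UDP-glycosyltransferase genes 12 (34.3%) were higher in females and 4 (11.4%) in males, led by Ugt316A1 (1.56) and Ugt50B3 (-4.26). GstD9 (-1.76) had the largest male difference of 34 glutathione S-transferase genes, of which 7 (20.6%) were higher in females and 4 (11.8%) in males. Of 56 gustatory receptor genes 9 (16.1%) were higher in females, by 0.34 to 0.76, and for Gr59a and Gr93c the means of both sexes lay below the lower quartile. Of 66 cuticle protein genes 11 (16.7%) were higher in females and 2 (3.03%) in males, the latter Cpr56F (-1.14) and Cpr51A (-0.95).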
